A study of Homo sapiens with 6 samples.

Results

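The Arp2/3 complex is the actin nucleator that starts a new filament from the side of an old one, and the 9 genes of its subunits are described here in A549 cells after silencing of FSCN1. The genes were taken by symbol from the deposited count table: ACTR2, ACTR3, ARPC1A, ARPC1B, ARPC2, ARPC3, ARPC4, ARPC5 and ARPC5L, 9 of the 30230 genes listed, all 9 of which passed the filter on low counts. Polyadenylated RNA was sequenced from 3 NC and 3 siFSCN1 libraries. A549 is a human lung adenocarcinoma line, an epithelial non-small-cell lung cancer model, and it was the only line used, in both groups with no further treatment named. The siFSCN1 cells received an siRNA against FSCN1, which encodes fascin, a protein that bundles actin filaments. The NC cells received a scrambled siRNA according to the study's methods, while their treatment label names a control plasmid. A single siRNA sequence was used for these libraries, so that responses to the sequence itself and responses to lower FSCN1 cannot be told apart. The study describes the 3 libraries of each group as biological replicates. The comparison addresses which transcripts differ once FSCN1 is silenced.

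ARP2 and ARP3, encoded by ACTR2 and ACTR3, resemble actin and together form the template for the first subunits of the daughter filament, while the remaining subunits, ARPC1 to ARPC5, hold this pair and grip the mother filament. The ARPC1 and ARPC5 positions can each be filled by either of a pair of paralogs, ARPC1A or ARPC1B in the first case and ARPC5 or ARPC5L in the second, and complexes with different paralogs are known to differ in activity. WASP-family proteins switch the complex on, and it drives the branched networks of lamellipodia and endocytic sites, whereas fascin packs filaments into the parallel bundles of filopodia.

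FSCN1 fell from 46.1 FPKM ± 1.13 (SD, n = 3) in NC to 3.49 FPKM ± 0.860 (SD, n = 3) in siFSCN1, where FPKM is the authors' level scaled to gene length and library depth. The 6 libraries held between 27967301 and 36560919 counts. Of 10 markers of the A549 epithelial line, 10 were above 1 FPKM in every library, with a summed level of 8641 to 9311 FPKM in NC and 8085 to 8573 FPKM in siFSCN1. Summed markers of blood cells lay between 3.14 and 3.62 FPKM in NC and between 4.01 and 5.12 FPKM in siFSCN1, with CD14 the highest, those of endothelium reached at most 0.04 FPKM and those of fibroblasts at most 0.67 FPKM. The 13 mitochondrially encoded protein genes took 8.61% to 9.29% of counts in NC and 12.6% to 12.8% in siFSCN1, and the part of this shift in the results below was not tested. In these bulk samples fewer cells of a kind and less RNA per cell cannot be told apart.

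Of the 9 subunit transcripts, 7 fell in siFSCN1, 1 rose and 1 did not pass the test at an adjusted p under 0.05. The only one past a 2-fold change was ACTR2. The 1 called rise was in ARPC1A, and the sum of its row with those of overlapping genes was not called as changed. Calls were common in these data: 33.2% of the 17076 genes tested passed as lower and 35.1% as higher (edgeR's quasi-likelihood test, Benjamini-Hochberg adjustment over all genes tested), and 4.85% passed as lower and 11.7% as higher with at least a 2-fold change. The share called lower was larger among abundant genes. Among 3132 tested genes with a mean FPKM of 10 or more, 65.7% passed as lower and 19.3% as higher, and 8 of the 9 subunits are in this class, of which 7 (87.5%) passed as lower. The median log2 fold change of the 9 subunits was -0.38, a level of 77.1% of NC, beside 0.03 over all tested genes and -0.28 over the abundant ones. So the typical subunit lay 0.41 below the median gene on the log2 scale (a difference of -0.41), and less far below the median of the abundant genes.

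On the CPM scale (counts relative to the library size after TMM scaling), the 3 siFSCN1 libraries lay below all 3 NC libraries for 7 subunits, above them for 1, and overlapped them for 1. Over all tested genes, 34.4% lay wholly below and 36.8% wholly above. Taken library by library, the median log2 difference of the 9 subunits from their NC means was -0.01, -0.02 and 0.01 in NC replicates 1, 2 and 3 and -0.33, -0.39 and -0.39 in the siFSCN1 replicates. No library carried the shift alone. Unless another setting is named, log2 fold changes here were fitted on counts scaled by TMM. The authors' FPKM are scaled to library depth, so the ratio of FPKM means need not give the same change.

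**Figure D1:**
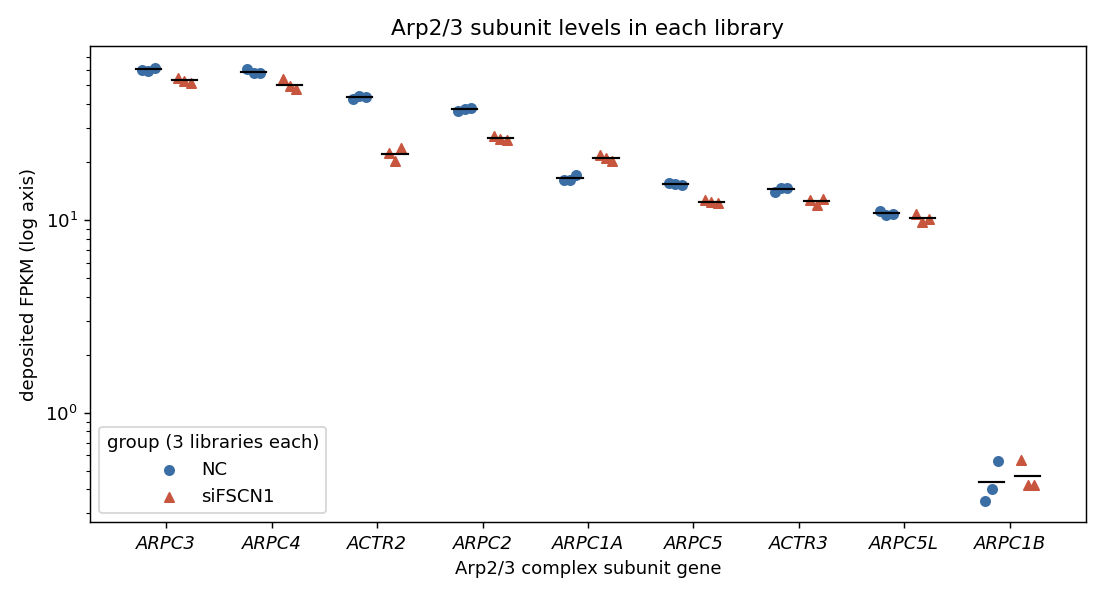
Deposited FPKM (log axis) of the 9 Arp2/3 subunit genes in each of 3 NC libraries (circles) and 3 siFSCN1 libraries (triangles), with short bars at the group means. ACTR2 shows the widest gap, from 43.3 to 22.0 FPKM, ARPC1A lies higher in siFSCN1, and ARPC1B is far below the other subunits in both groups.

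The sequences before the start of ACTR2, the subunit that fell most, and of ARPC1A, the only row called higher, are shown. These rows were called in opposite directions, although the sum of the ARPC1A row with those of overlapping genes was not called as changed. They are RefSeq sequences of GRCh38.p14, on the + strand, at chr2:65227581-65227787 and chr7:99325648-99325897. Each is read from the 250 bases before a RefSeq start and ends where the annotated gene begins. Capitals mark matches on either strand to the ETS core CCGGAAG, the CCAAT box and the GC box GGGCGG.
ACTR2: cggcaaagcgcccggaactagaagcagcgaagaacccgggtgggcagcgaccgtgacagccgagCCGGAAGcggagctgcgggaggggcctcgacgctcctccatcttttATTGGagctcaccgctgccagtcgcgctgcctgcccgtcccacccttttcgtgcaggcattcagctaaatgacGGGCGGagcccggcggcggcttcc
ARPC1A: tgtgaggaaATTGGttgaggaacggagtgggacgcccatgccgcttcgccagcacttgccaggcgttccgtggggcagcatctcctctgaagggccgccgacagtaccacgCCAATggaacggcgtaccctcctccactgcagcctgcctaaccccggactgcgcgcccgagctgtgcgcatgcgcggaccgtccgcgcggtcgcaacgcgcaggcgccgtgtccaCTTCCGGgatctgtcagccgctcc
The ACTR2 stretch held 1 ETS core, 1 CCAAT box and 1 GC box, and that of ARPC1A 1 ETS core and 2 CCAAT boxes, with no GC box. Of the 9 subunits, 8 had a promoter entry, in 11 windows of 250 bases, and ARPC1B had none. The GC box was in 9 of these 11 windows and in 42.6% of 35116 windows of all genes, the ETS core in 3 (of ACTR2, ARPC1A and ARPC3) and in 8.52%, and the CCAAT box in 4 and in 32.0%. Unlike the sequences shown, these windows were not cut at the annotated gene start, and 1 window each of ACTR3 and ARPC2 lies inside the gene. In the stretches cut there, ACTR3 and ARPC3 had no GC box and ARPC3 had no ETS core. The TATA box (TATAAA) and the CArG box, the site of serum response factor, were in 0 of the 11, beside 10.7% and 1.16% of all windows. Windows of ACTR3 and of ARPC2 overlap each other in part, so that the 11 are not independent, and a match here is a match of letters only.

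The actin-related pair did not move evenly. ACTR2 (ENSG00000138071.14, GRCh38 chromosome 2, 65227788 to 65271253, + strand) encodes ARP2 and had 42.32, 44.02 and 43.53 FPKM in NC replicates 1, 2 and 3 and 22.15, 20.2 and 23.66 FPKM in the siFSCN1 replicates. Every siFSCN1 value lay far below every NC value. On average FPKM went from 43.3 ± 0.875 to 22.0 ± 1.74 (SD, n = 3), and CPM fell from 234.7 ± 3.57 to 106.3 ± 7.89 (SD, n = 3), to 45.3% of NC. The log2 fold change of ACTR2 was -1.14 (SE 0.0469, adjusted p = 3.23e-13), and 576 tested genes fell further. Of the 3132 abundant genes, 195 fell at least 2-fold. The call of a fall held under all 16 alternatives, with log2 fold changes between -1.21 and -0.90, although ACTR2 ended short of 2-fold when libraries were scaled by their totals (-0.96), in limma fits of FPKM with 0.1 (-0.98) or 1 (-0.95) added, and when the trend of fold change with abundance was removed (-0.90). Its distance from the median gene was -1.17 on the log2 scale, -1.03 in limma on log2(FPKM + 1) and -0.88 with the trend removed.

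ACTR3 (ENSG00000115091.12, chromosome 2, 113890063 to 113962596, + strand) encodes ARP3, the partner that sits beside ARP2 in the daughter filament. Its levels were 14.01, 14.66 and 14.67 FPKM in NC and 12.63, 12.01 and 12.86 FPKM in siFSCN1. The groups did not overlap, but the gap was small beside that of ACTR2. CPM fell from 217 ± 4.01 to 167 ± 4.92 (SD, n = 3), a log2 fold change of -0.38 (SE 0.0380, adjusted p = 7.52e-08).

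Within each library, the ratio of ACTR3 to ACTR2 does not depend on how libraries are scaled. The FPKM ratio was 0.331, 0.333 and 0.337 in NC and 0.570, 0.595 and 0.544 in siFSCN1. The mean ratio went from 0.334 ± 0.00304 to 0.569 ± 0.0255 (SD, n = 3), so that ACTR3 came closer to ACTR2 in FPKM. Which of the pair stands higher depends on the exonic length used, 11946 bases for ACTR3 and 4041 for ACTR2. In CPM, which is not corrected for length, ACTR3 went from 217 to 167 and ACTR2 from 234.7 to 106.3. On that scale ACTR3 was the lower of the pair in NC and the higher in siFSCN1. This order, too, depends on length and does not say which transcript was more abundant. The difference in the log2 ratio was 0.77, with all 3 siFSCN1 libraries above all 3 NC libraries and an exact two-sided permutation p of 0.1 (0.2 adjusted over the 4 ratios compared), which is the smallest p that 3 against 3 libraries can give. It lay between 0.74 and 0.80 with any 1 library left out.

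**Figure D2:**
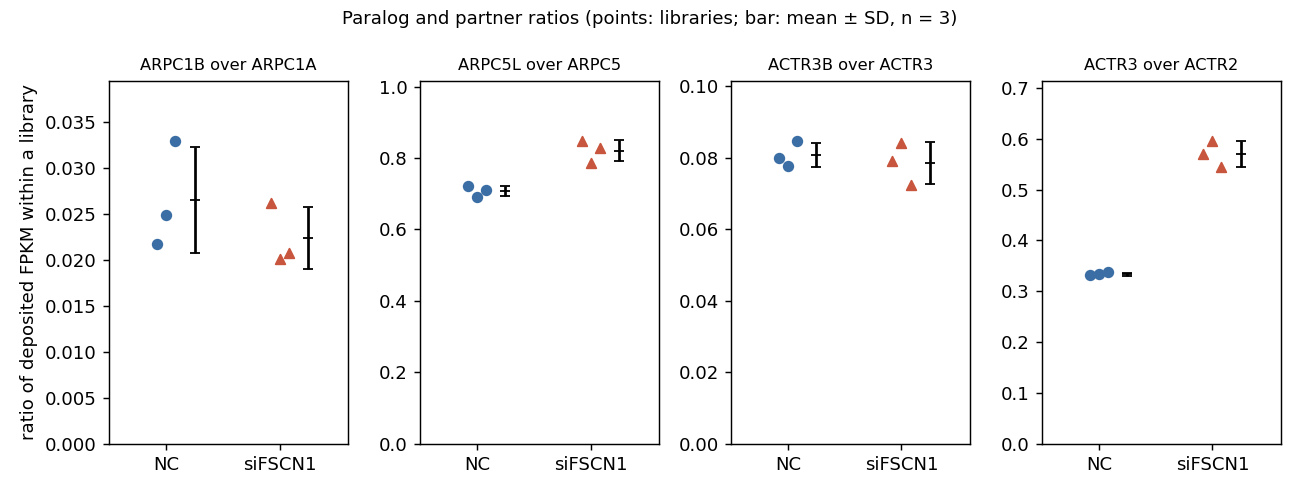
Ratio of deposited FPKM within each library for 4 pairs of genes, with points for the 3 NC (circles) and 3 siFSCN1 (triangles) libraries and bars for the mean ± SD; each panel has its own linear axis from 0. ACTR3 over ACTR2 (0.334 to 0.569) and ARPC5L over ARPC5 (0.708 to 0.821) separate the groups, while ARPC1B over ARPC1A and ACTR3B over ACTR3 overlap.

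ARPC2 and ARPC4 form the core of the complex on which ARP2 and ARP3 are held, and most of the contact with the mother filament is made there. ARPC2 (ENSG00000163466.16, chromosome 2, 218217141 to 218254356, + strand) had 36.85, 37.59 and 37.99 FPKM in NC and 27.37, 26.24 and 25.97 FPKM in siFSCN1. The groups stood clearly apart, and this was the second largest fall of the 9. CPM went from 307 ± 2.03 to 194 ± 3.54 (SD, n = 3), 63.1% of NC, with a log2 fold change of -0.66 (SE 0.0356, adjusted p = 1.22e-11). ARPC4 (ENSG00000241553.13, chromosome 3, 9792495 to 9807101, + strand) had 60.51, 57.59 and 57.94 FPKM in NC and 53.6, 49.56 and 47.5 FPKM in siFSCN1. All siFSCN1 values were lower, with a wider spread than for ARPC2. Its log2 fold change was -0.39 (SE 0.0437, adjusted p = 2.75e-07).

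The reads of ARPC4 border on a second, weaker feature. ARPC4-TTLL3, an annotated readthrough gene on the same strand, shares 541 exonic bases with ARPC4 and had 65, 61 and 71 counts in NC and 311, 287 and 302 in siFSCN1. It moved opposite to ARPC4, with a log2 fold change of 2.01 (SE 0.122, adjusted p = 6.79e-11), and its downstream partner TTLL3, which encodes a tubulin glycylase, had 2.14 (SE 0.172, adjusted p = 3.18e-09). ARPC4 held between 94.0% and 98.9% of the counts of ARPC4 and ARPC4-TTLL3 together, and their sum still fell, by 0.32 on the log2 scale (adjusted p = 2.59e-06). TADA3, on the opposite strand, overlaps ARPC4 by 211 exonic bases and had a log2 fold change of -0.13. Whether the counting used strand is not given in the sources used here, so reads of such opposite-strand partners may be mixed.

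ARPC3 encodes a subunit that bridges the core to ARP3. ARPC3 (ENSG00000111229.16, chromosome 12, 110434823 to 110450422, - strand) had, together with ARPC4, the highest FPKM of the subunit rows. Its levels were 59.96, 59.28 and 61.64 FPKM in NC and 54.51, 52.77 and 51.46 FPKM in siFSCN1. The siFSCN1 libraries were all lower, by a modest margin. The mean went from 60.3 ± 1.22 to 52.9 ± 1.53 FPKM (SD, n = 3), with a log2 fold change of -0.35 (SE 0.0368, adjusted p = 1.06e-07). A neighbouring gene on the same strand, RP11-478C19.2, shares 97 exonic bases with it, and the 2 rows summed gave the same change, -0.35. Of 4 ARPC3 pseudogenes in the table, none had more than 7 counts in a library, so few reads of these near copies were counted apart from ARPC3.

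The ARPC5 position is filled by ARPC5 or by its paralog ARPC5L, and both transcripts fell, but not equally. ARPC5 (ENSG00000162704.16, chromosome 1, 183620846 to 183635783, - strand) had 15.46, 15.37 and 15.09 FPKM in NC and 12.71, 12.43 and 12.19 FPKM in siFSCN1. Its replicates were tight and the groups apart. CPM went from 205 ± 4.42 to 148.5 ± 2.36 (SD, n = 3), 72.4% of NC, with a log2 fold change of -0.47 (SE 0.0373, adjusted p = 3.19e-09). ARPC5L (ENSG00000136950.13, chromosome 9, 124862130 to 124877733, + strand) had 11.14, 10.64 and 10.74 FPKM in NC and 10.76, 9.79 and 10.1 FPKM in siFSCN1. On this scale the groups overlapped, whereas in CPM they did not (49.2 ± 1.59 against 41.3 ± 1.44, SD, n = 3). The log2 fold change of ARPC5L was -0.25 (SE 0.0512, adjusted p = 0.000281), and this call was lost with library totals (-0.07, adjusted p = 0.266) and in limma on log2(FPKM + 0.1) (-0.09, adjusted p = 0.138) and on log2(FPKM + 1) (-0.08, adjusted p = 0.140). Over the 16 alternatives its adjusted p ran from 1.90e-05 to 0.266. The ratio of ARPC5L to ARPC5, free of that scaling, was 0.721, 0.692 and 0.712 in NC and 0.847, 0.788 and 0.829 in siFSCN1. It was higher in all 3 siFSCN1 libraries, by 0.21 on the log2 scale (exact two-sided permutation p = 0.1, the smallest possible, and 0.2 over the 4 ratios). A long non-coding RNA gene on the opposite strand shares 652 exonic bases with ARPC5L and has no row of its own. Its reads may be mixed with those of ARPC5L.

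The ARPC1 position, a beta-propeller subunit that also contacts activators, can hold ARPC1A or ARPC1B, and here the table does not separate the genes cleanly. ARPC1A (ENSG00000241685.10, chromosome 7, 99325898 to 99366262, + strand) had 16.09, 16.13 and 17.05 FPKM in NC and 21.78, 20.87 and 20.22 FPKM in siFSCN1. All siFSCN1 libraries were higher, and CPM went from 42.65 ± 1.09 to 48.5 ± 1.44 (SD, n = 3), a log2 fold change of 0.18 (SE 0.0502, adjusted p = 0.00331). ARPC1B (ENSG00000130429.15, chromosome 7, 99374249 to 99394816, + strand) had 0.35, 0.4 and 0.56 FPKM in NC and 0.57, 0.42 and 0.42 FPKM in siFSCN1. The groups overlapped, with a log2 fold change of -0.08 (SE 0.204, adjusted p = 0.753) and a 95% interval from -0.48 to 0.32. With only 51 to 95 counts in the ARPC1B row in NC, changes within that interval remain compatible with the data. Without NC replicate 3 the direction of ARPC1B turned, to 0.14.

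Both genes are spanned by a further row of the table. RP5-900K19.2 (ENSG00000284292.1) is a readthrough gene on the same strand, and of its 2705 exonic bases 2502 are shared with ARPC1A (1210) or ARPC1B (1292), leaving 203 of its own. It had 9327, 8214 and 10666 counts in NC and 10308, 9654 and 9947 in siFSCN1. ARPC1A had only 1220, 1103 and 1504 counts in NC and 1711, 1612 and 1595 in siFSCN1, and ARPC1B 51, 53 and 95 in NC and 86, 62 and 64 in siFSCN1. In every library the readthrough row held most of the counts of the 3 rows, between 85.2% and 88.0%, while ARPC1A held 11.5% to 14.2% and ARPC1B 0.481% to 0.775%.

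Summing the 3 rows left no called change. The ARPC1 rows together went from 360.0 to 345.5 CPM (SDs 5.70 and 5.42, n = 3), a log2 fold change of -0.06 (SE 0.0349, adjusted p = 0.142) with a 95% interval from -0.13 to 0.01. RP5-900K19.2 itself had a log2 fold change of -0.10 (SE 0.0354, adjusted p = 0.0231). Summing was chosen after seeing the data, and how the counting program assigned reads in shared exons is not given in the sources used here. The levels of ARPC1A and ARPC1B in FPKM, and the ratio of ARPC1B to ARPC1A (0.0265 ± 0.00573 in NC and 0.0224 ± 0.00332 in siFSCN1, SD, n = 3), therefore describe the rows of this table and not the amount of each paralog. The log2 ratio differed by -0.23, with overlapping groups and an exact two-sided permutation p of 0.4. Leaving out 1 library moved it to between -0.36 (without NC replicate 1) and -0.07 (without NC replicate 3), and it was -0.35 without siFSCN1 replicate 1. PDAP1, on the opposite strand, shares 244 exonic bases with ARPC1B and had a log2 fold change of -0.34.

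**Figure D3:**
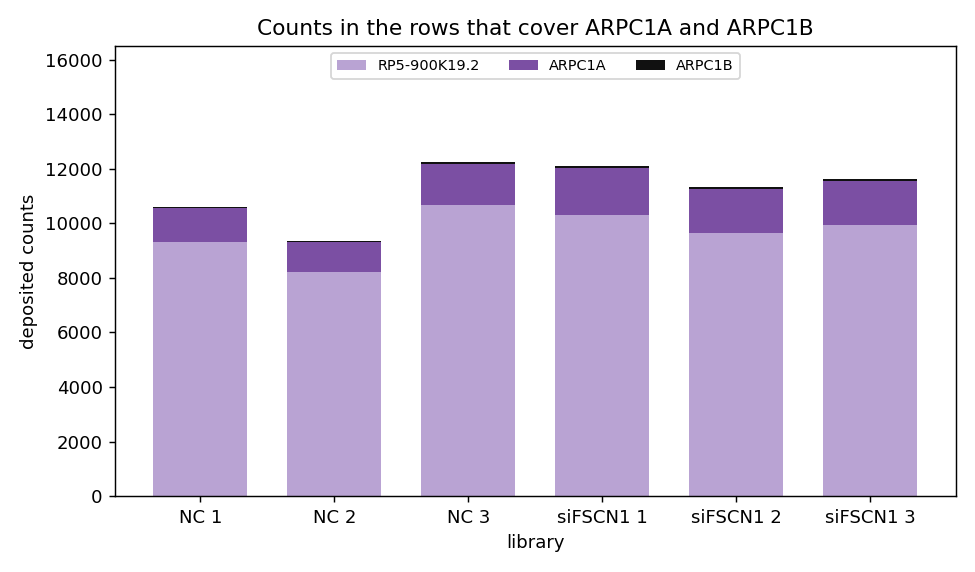
Deposited counts in each library for the 3 rows that cover ARPC1A and ARPC1B, stacked from 0 on a linear axis. RP5-900K19.2 makes up 85.2% to 88.0% of each bar, and ARPC1B (black) is barely visible with 51 to 95 counts.

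The order of the subunits in FPKM, which depends on the gene lengths used, was nearly the same in both groups. In NC, ARPC3 and ARPC4 stood highest with overlapping ranges, followed by ACTR2, ARPC2, ARPC1A, ARPC5, ACTR3, ARPC5L and ARPC1B, with no other neighbours overlapping. In siFSCN1, ACTR2 dropped below ARPC2 and overlapped ARPC1A, and ACTR3 and ARPC5 overlapped each other. FPKM values count the shared exons in the lengths of ARPC1A and ARPC1B, so the places of these 2 rows are uncertain. RP5-900K19.2, which is neither ranked nor summed here, had 92.6 FPKM in NC and 97.3 FPKM in siFSCN1, above ARPC3 and ARPC4. The 9 subunit rows summed to 257 FPKM ± 1.82 (SD, n = 3) in NC and 208 FPKM ± 6.78 (SD, n = 3) in siFSCN1, 81.0% of NC. Without the ARPC1 rows the sum was 240 FPKM ± 1.23 and 187 FPKM ± 5.99 (SD, n = 3), 77.7% of NC. These sums describe the rows and are not totals for the complex.

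Since most abundant transcripts fell, each subunit was also fitted with the smooth trend of fold change against abundance removed. The trend took between -0.27 and -0.11 from the log2 fold change of each subunit other than ARPC1B, for which it took 0.32. What remained was smaller for the 7 subunits that fell. ACTR2 kept -0.90 (SE 0.0467), ARPC2 -0.39 (SE 0.0355) and ARPC5 -0.22 (SE 0.0372). ARPC4 kept -0.15, ARPC5L -0.14, ACTR3 -0.13 and ARPC3 -0.10, with adjusted p-values (edgeR) between 0.00521 and 0.0255. All 7 stayed below an adjusted p of 0.05, and the median of the 9 became -0.15 beside -0.03 over all genes. The changes of the ARPC1 rows grew. ARPC1A went to 0.30 (edgeR, adjusted p = 3.91e-05) and ARPC1B to -0.40 (edgeR, adjusted p = 0.0937).

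**Figure D4:**
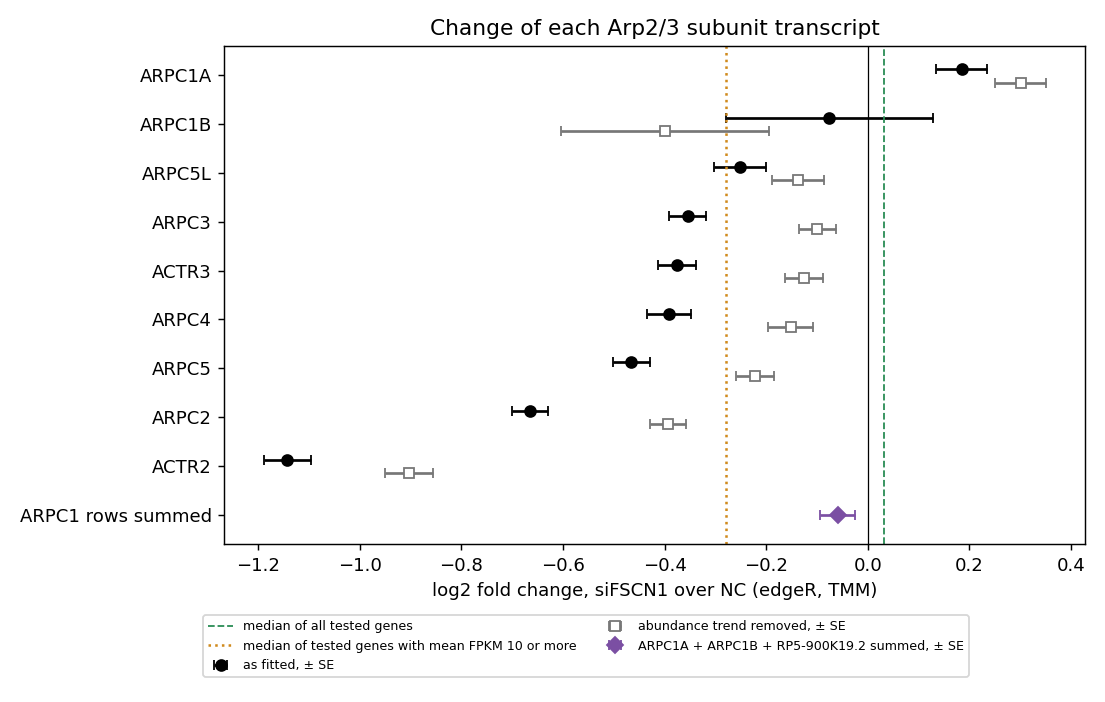
Log2 fold change of siFSCN1 over NC with its SE for each subunit as fitted (filled circles) and with the abundance trend removed (open squares), and for the ARPC1 rows summed (diamond); lines mark the medians of all tested genes (0.03, dashed) and of genes with a mean FPKM of 10 or more (-0.28, dotted). As fitted, ACTR2 (-1.14) and ARPC2 (-0.66) lie furthest below both medians, ARPC1A lies above both, and ARPC5L (-0.25) sits near that of the abundant genes.

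The pattern of a typical subunit was shared by many other genes. The 3 genes outside the complex and its regulators whose centred log2 CPM came closest to the median of the 9 subunits over the 6 libraries were RPL5, a ribosomal protein, YKT6, a SNARE of vesicle fusion, and UQCRC2, a core protein of respiratory complex III. Their root mean square distances were 0.0117, 0.0122 and 0.0154 on the log2 scale, and their log2 fold changes -0.36, -0.37 and -0.37. Of 5290 candidates, 1436 lay within 0.1 of the subunit median. ARPC3 was the subunit nearest to that median, at 0.0148, and ACTR2 the farthest, at 0.394.

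The other genes of the pathway moved in both directions. Of 51 genes in 8 lists of regulators, 45 were tested, and 18 fell, 15 rose and 12 did not pass the test, with a median log2 fold change of -0.10 beside 0.03 over all tested genes. These counts are near the background of 33.2% lower and 35.1% higher among all genes tested. With library totals in place of TMM the split was 12 lower and 19 higher. Of the inhibitors and debranching factors 7 of 11 fell and 0 rose, although 1 passed as higher with upper quartile scaling and in limma on FPKM, and 2 with library totals. The lists were not tested against each other. The log2 fold changes given with FPKM values below come from counts scaled by TMM, not from the FPKM.

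ACTR3B, a second gene for ARP3, was scarce beside ACTR3 and fell from 1.17 to 0.98 FPKM (log2 fold change -0.41, SE 0.108, adjusted p = 0.00250). Its ratio to ACTR3 was 0.0807 ± 0.00345 in NC and 0.0785 ± 0.00592 in siFSCN1 (SD, n = 3), with overlapping groups (exact two-sided permutation p = 0.6). ACTR3C did not pass the filter on low counts.

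Among the activators of the complex, the WAVE complex, which passes signals of the GTPase RAC to Arp2/3 at the leading edge, had 3 genes lower, 3 higher and 2 not passing of 8 tested (median -0.02). With library totals, in limma on FPKM and with the abundance trend removed, 1 of its genes was called lower in place of 3. CYFIP2 (-0.43, from 3.95 to 3.29 FPKM) and CYFIP1 (-0.26), its RAC-binding subunits, fell, and ABI2 (0.25), an adaptor subunit, rose. Of the 5 WASP and WIP genes 3 rose, 1 fell and 1 did not pass (median 0.51). That median is the value of a gene at a mean of 0.773 FPKM, and the gene not passing had 0.132 FPKM. WASL, which encodes N-WASP, rose from 6.88 to 9.36 FPKM (0.28), and WIPF1, which encodes the WASP chaperone WIP, from 1.28 to 2.65 FPKM (0.89), while WIPF2 fell (-0.19). The WASH complex, which builds branched actin on endosomes, had 3 genes higher, 1 lower and 2 not passing of 6 (median 0.16), and 2 were called lower with RLE scaling, DESeq2 or no filter, without NC replicate 1, and without siFSCN1 replicate 3. WASHC1 (0.76), its activating subunit, and WASHC3 (0.50) rose and WASHC4 (-0.64) fell, and reads of WASHC1 are uncertain because the gene has near-identical copies.

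Cortactin, encoded by CTTN, binds the complex and stabilises branches, and its transcript rose opposite to most subunits. CTTN had 21.18, 20.86 and 22.35 FPKM in NC and 32.2, 32.79 and 33.52 FPKM in siFSCN1. The groups stood well apart. Its log2 fold change was 0.45 (SE 0.0388, adjusted p = 9.45e-09). JMY, an activator of the complex that also nucleates actin alone, was the 1 regulator at least 2-fold higher, at 0.42 FPKM in NC and 1.16 FPKM in siFSCN1 (1.30). JMY lies outside the rule for named genes and was named after its values were seen, as was CORO1A below. The list of other activators and branch stabilisers had 2 genes higher and 2 not passing of 4 tested (median 0.20).

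GMFB, glia maturation factor beta, which removes branches by binding Arp2/3, fell about as far as ACTR2. It had 8.75, 9.03 and 9.43 FPKM in NC and 4.48, 4.05 and 4.15 FPKM in siFSCN1. Every siFSCN1 value was lower than every NC value by a wide margin, with a log2 fold change of -1.27 (SE 0.0501, adjusted p = 1.98e-13). The coronins CORO1B (-0.53, from 10.5 to 8.16 FPKM) and CORO1C (-0.50, from 23.4 to 18.5 FPKM), which oppose cortactin at branches, also fell. CORO1A, the coronin known from blood cells, fell from 0.463 to 0.08 FPKM (-2.70) and was, with GMFB, one of the 2 regulators at least 2-fold lower. The median of the 11 inhibitors and debranching factors tested was -0.46.

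Of the 7 upstream GTPases and adaptors, 3 fell, 3 rose and 1 did not pass (median -0.28). The 3 called higher became 1 with RLE scaling, DESeq2 or no filter, without any 1 NC library, and without siFSCN1 replicate 2 or 3. RAC3 fell from 12.1 to 8.30 FPKM (-0.71) and RHOG, which acts upstream of RAC, changed by -0.33, while the adaptor NCK2 rose (0.34). RAC1, far more abundant than RAC3, went from 74.4 to 89.4 FPKM. Its log2 fold change on counts scaled by TMM was 0.10, a call not held in those alternatives, and CDC42 changed by -0.28. RAC1 and CDC42 also lie outside the rule for named genes and were named after their values were seen. The capping protein genes, which limit the growth of branches at their barbed ends, were CAPZA1 (-0.45, from 34.5 to 28.4 FPKM), CAPZB (-0.20) and CAPZA2 (0.10). CAPZA1 and CAPZB fell and CAPZA2 rose, but the call of CAPZA2 was lost in 8 of 16 alternatives, among them those without any 1 NC library and without siFSCN1 replicate 2 or 3, and CAPZB turned to 0.04 with the abundance trend removed. The calls of WIPF2 and CYFIP1 were lost in 5 and 4 of the 16.

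**Figure D5:**
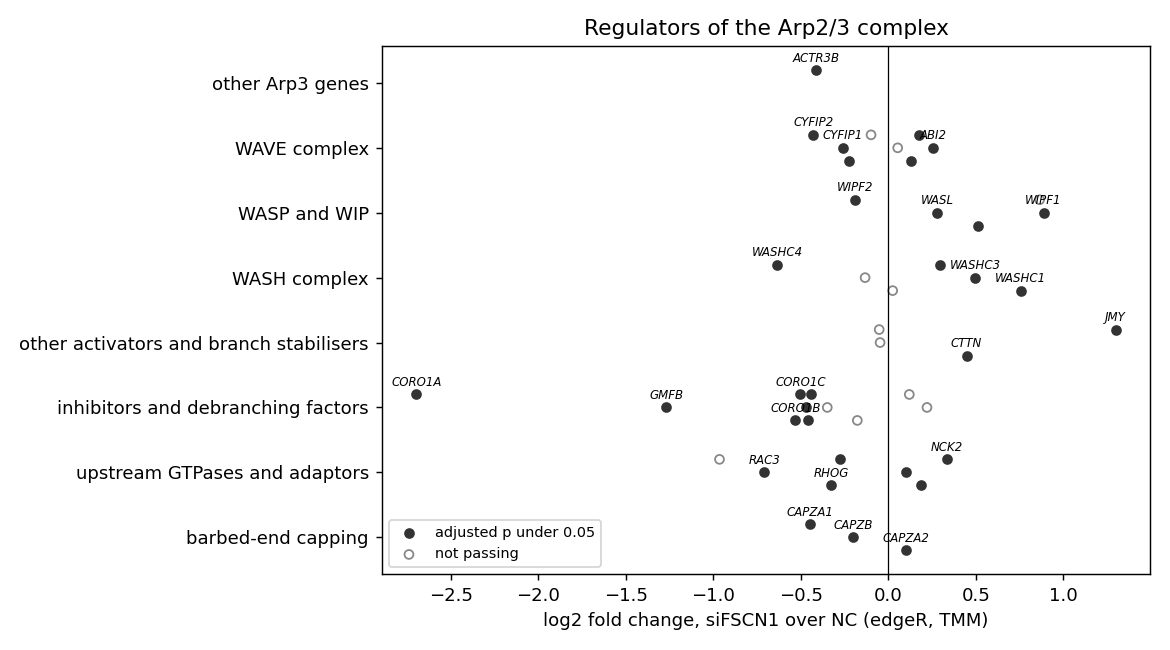
Log2 fold change of siFSCN1 over NC for the 45 tested regulator genes in 8 lists (rows, spread vertically for legibility), filled where the adjusted p was under 0.05. GMFB (-1.27) and CORO1A (-2.70) lie furthest to the left and JMY (1.30) furthest to the right.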

How the data were processed

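The authors deposited counts per gene, whole numbers with no scaling, and FPKM values, in which counts are scaled to gene length and library depth. According to the study's methods, reads were trimmed, aligned with HISAT2 to GRCh38 and kept where uniquely mapped, while the submitters' processing notes list bcl2fastq and TopHat2. The library kit also differs between the labels and the study's methods, both naming a strand-marking kit. The program that counted reads, whether it used strand, and its annotation are not given in the sources used here.

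Sample titles gave the groups and replicate numbers. Genes were kept by filterByExpr, counts scaled by TMM, and groups compared in edgeR (version 4.0.16, under R 4.3.3) by its quasi-likelihood test, with Benjamini-Hochberg adjustment over all 17076 genes tested and a threshold of 0.05. Each standard error is the log2 fold change over the root of its F value. The study used DESeq2, run here (1.42.0) as an alternative. Ratios between genes were compared by an exact permutation test. The labels do not say that libraries came from separate cultures, so p-values measure the spread between these libraries, which may be technical. Within groups, chi-square per degree of freedom was 3.06 to 8.15, so no library was a duplicate of another. Positions and exonic lengths came from GENCODE 44, in which 99.7% of identifiers were found. The scripts were tested on simulated data.

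The members and the lists of regulators were chosen with earlier results of these data known. Named regulators are up to 3 per list with the largest change among those at an adjusted p under 0.05 and a mean FPKM of at least 1, with CTTN, WASL and ACTR3B in any case. The genes of nearest pattern were sought among tested genes of mean FPKM 5 or more. The abundance trend was a loess curve (span 0.5) of log2 fold change. The other alternatives were RLE, upper quartile and library-total scaling, no filter beyond 1 count, a strict filter (10 counts on average, and 1 CPM in at least 3 libraries), a replicate block, each library left out, and limma 3.58.1 on log2(FPKM + 0.1) and log2(FPKM + 1).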

Additional observations from a re-analysis of the deposited data

How the results depend on the processing

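The 7 falls and the rise of ARPC1A were called under every scaling of counts, DESeq2, both filters and each fit without 1 library, apart from ARPC5L with library totals (-0.07). The number of subunits at least 2-fold lower, 1, became 0 with library totals, with limma on log2(FPKM + 0.1) and log2(FPKM + 1), and with the abundance trend removed. The subunits' median of -0.38 was -0.26 with upper quartile scaling, -0.19 with library totals, -0.35 with the strict filter, -0.21 and -0.19 with limma on FPKM (0.1 and 1 added) and -0.15 with the trend removed. Library totals moved the median of all genes to 0.22 and upper quartile scaling to 0.15, and calls that were higher from 51.4% to 67.5% and 61.4% of all calls (65.6% with limma on FPKM). Relative to the median of all genes, the subunits' median was -0.41, which a rescaling of the same counts cannot change. It became -0.52 with no filter beyond 1 count and -0.37 with the strict filter. With limma on FPKM it was -0.38 and -0.28, and with the trend removed -0.13.

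The rows of ARPC1A, ARPC1B and their readthrough gene, summed, had a log2 fold change of -0.0592 (edgeR, adjusted p = 0.142), which was not called. The readthrough row held most of the counts in that sum, so the value does not give the direction of ARPC1A. ARPC1B, never called, turned to 0.0416 with upper quartile scaling, 0.11 with library totals, 0.0956 and 0.0342 with limma on FPKM, and ran from -0.24 to 0.14 with 1 library left out. CAPZB was 0.0371 with the trend removed. The log2 ratio of ACTR3B to ACTR3 ran from -0.0928 to 0.0161 with 1 library left out. The causes were not tested. Same-numbered libraries did not deviate together (correlations of -0.04, 0.04 and -0.08). Such correlations cannot show whether libraries of the same number were prepared as a pair. With the replicate block the median was -0.38, with 7 subunits lower and 1 higher. Among the subunits, ARPC1B is limited most by the few counts in its row, and 3 libraries a group limit the exact tests to a p of at least 0.1.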
